A study of Mus musculus with 2 samples.

Results

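The major histocompatibility complex (MHC) class II pathway was described here by 10 genes in B cells sorted from the hearts of neonatal and adult mice. The members were chosen by their role in the pathway, with earlier results of these data known, and all 10 were measured among 31053 genes. They comprise the classical chains H2-Aa, H2-Ab1 and H2-Eb1, the further beta chain gene H2-Eb2, the DM chains H2-DMa and H2-DMb2, the DO chains H2-Oa and H2-Ob, the invariant chain Cd74 and the transactivator Ciita. The B cells were sorted as live CD45+ cells with a B cell surface marker, from wild-type C57BL6/J mice, 6 neonatal mice aged 2 weeks (males and females pooled) and 6 adult males aged 8 weeks. The title of the neonatal sample gives 15 days. Each age was 1 droplet library, so age and library cannot be told apart and no difference between ages has a replicate check. The libraries also differed in sex, which was set apart only where male neonatal cells were used alone.

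Class II molecules present peptides from internalized proteins to CD4+ T cells, and B cells use them to obtain T cell help. The alpha and beta chains assemble with the invariant chain, which fills the peptide groove until proteases trim it, DM then exchanges the remaining fragment for peptide, and DO, found mainly in B cells, restrains DM. CIITA is the transactivator that docks on the factors bound to the shared X and Y boxes of the class II promoters. B cell precursors of the bone marrow acquire surface class II as they mature, which makes the stage of the cells part of any comparison between young and adult animals.

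In the GENCODE vM21 annotation of GRCm38, 8 members lie within 0.249 megabases of chromosome 17, from 34092340 to 34341412, whereas Ciita lies on chromosome 16 (10480059 to 10528418). Genes on the opposite strand overlap H2-Eb1 (Gm20513), H2-DMa (Brd2), H2-Oa (BC051537) and Ciita (Dexi), and 3′ droplet reads keep strand. The promoter stretches below show the letters that members of this cluster share. RefSeq promoters (GRCm38.p6, from 250 bases before to 50 bases after the start) were held for 7 of the 10 members: H2-Aa, H2-Eb1, H2-Eb2, H2-DMa, H2-DMb2, H2-Oa and H2-Ob. The letters TGATTGG, a core of the Y box, and GCAAC, from the X box, were chosen after reading these promoters. TGATTGG was searched on both strands, and GCAAC only on the strand of the gene, within 40 bases before TGATTGG. The windows are aligned on TGATTGG, 5′ to 3′ on the gene's strand, with both sets of letters in capitals.
H2-Aa, chr17:34287857-34287933, minus strand: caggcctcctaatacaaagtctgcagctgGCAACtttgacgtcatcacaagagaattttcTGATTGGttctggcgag
H2-Eb1, chr17:34305746-34305822, plus strand: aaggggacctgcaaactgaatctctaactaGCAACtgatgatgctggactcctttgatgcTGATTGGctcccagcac
H2-Eb2, chr17:34325513-34325589, plus strand: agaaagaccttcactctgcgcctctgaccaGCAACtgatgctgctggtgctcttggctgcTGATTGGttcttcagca
H2-DMb2, chr17:34145097-34145173, plus strand: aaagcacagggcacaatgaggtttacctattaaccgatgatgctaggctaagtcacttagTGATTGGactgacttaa
H2-Oa, chr17:34092274-34092350, plus strand: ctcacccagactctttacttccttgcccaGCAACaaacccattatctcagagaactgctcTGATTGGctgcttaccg
H2-Ob, chr17:34238786-34238862, plus strand: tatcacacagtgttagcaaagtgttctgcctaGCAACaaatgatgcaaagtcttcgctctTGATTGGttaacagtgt

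TGATTGG was found in the promoters of H2-Aa, H2-Eb1, H2-Eb2, H2-DMb2, H2-Oa and H2-Ob, between 45 and 102 bases before the start. Of all 32851 promoters, 4.01% held these letters on the strand of the gene and 7.82% on either strand. GCAAC stood 23 to 26 bases before TGATTGG in H2-Aa, H2-Eb1, H2-Eb2, H2-Oa and H2-Ob. On the strand of the gene, 0.155% of all promoters held GCAAC within 40 bases before TGATTGG. H2-DMb2 held TGATTGG without GCAAC, and neither of the 2 listed H2-DMa promoters held TGATTGG. These matches describe letters only, and the pair stood both in H2-Ob and in its partner H2-Oa, whose levels differed in their relation to age as given below.

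Levels are counts of UMIs (unique molecular identifiers, each marking 1 captured mRNA molecule) per 1000000 UMIs of the cells, abbreviated CPM, with 95% exact intervals that cover counting error only. The libraries read the 3′ end of each molecule, so CPM is not divided by gene length. Cells were droplets with at least 2000 UMIs, at most 10% mitochondrial UMIs and at least 1 UMI of Cd79a, a chain of the B cell receptor. There were 2077 neonatal cells of 779448 droplets with a UMI and 3611 adult cells of 983353, with 16403180 and 34623240 UMIs and medians of 6000 and 6131 UMIs per cell. The B cell markers Cd79b and Ms4a1, which the choice of cells did not use, were at 1800.0 and 1347 CPM in the neonatal library and at 1263 and 1154 CPM in the adult one. Markers of macrophages, which also express class II, summed to 90.4 CPM in the neonatal and 16.4 CPM in the adult cells (all 6 detected in both), and those of dendritic cells to 3.84 and 6.73 CPM, with Clec9a at 0 in both. T cell markers summed to 7.68 and 8.67 CPM. The macrophage gene Lyz2 alone was at 68.5 and 6.07 CPM. The libraries shared 2 cell barcodes, and 61 neonatal and 45 adult cells had a barcode with at least 500 UMIs in the other library.

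The classical chains were about 1.6-fold higher in adult than in neonatal heart B cells, and the 3 genes moved as a block. H2-Aa, the alpha chain of I-A, was at 2332 CPM (2308 to 2355) in the neonatal and 3732 CPM (3712 to 3752) in the adult library. Its partner H2-Ab1 was at 2185 and 3437 CPM. H2-Eb1, the beta chain of I-E, was at 2086 and 3330 CPM. All 3 were higher in the adult library, with non-overlapping intervals and log2 ratios of 0.68 (0.66 to 0.70), 0.65 (0.64 to 0.67) and 0.67 (0.66 to 0.69). The ratio of H2-Aa to H2-Ab1 was 1.07 and 1.09, so the partner chains of I-A stayed close to parity in both. The alpha chain gene of I-E, H2-Ea, was not analysed here.

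**Figure D1:**
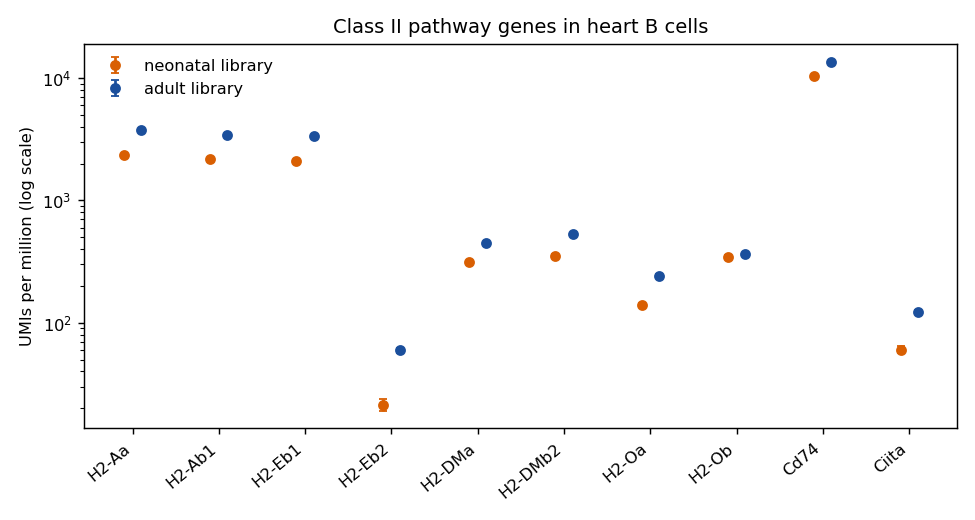
CPM (log axis) of the 10 class II pathway genes in the neonatal (orange) and adult (blue) library, with exact 95% intervals for counting error, 1 library per age. Cd74 is highest at 10410 and 13620, the classical chains lie between 2086 and 3732, and only the H2-Ob points lie nearly level, at 346 and 362.

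Low-level members differed more between the ages. H2-Eb2, a beta chain gene related to H2-Eb1, was at 21.2 CPM (19.0 to 23.6) in neonatal and 59.4 CPM (56.9 to 62.1) in adult cells, a log2 ratio of 1.49 (1.32 to 1.65). It was the rarest member in both libraries. Relative to H2-Eb1, H2-Eb2 was 98.3-fold lower in neonatal and 56.0-fold lower in adult cells. Ciita was at 60.4 CPM (56.7 to 64.2) and 122.8 CPM (119.2 to 126.6), a log2 ratio of 1.03 (0.93 to 1.13). The transactivator transcript was thus 2.04-fold higher in the adult library, against 1.59-fold for the classical sum of H2-Aa, H2-Ab1 and H2-Eb1. Within cells holding Vpreb3 without Cr2 or Fcer2a, Ciita was 1.615-fold and the classical sum 1.917-fold higher. This log2 difference of -0.25 (-0.55 to 0.05) has an interval that includes no difference. It was 0.07 (-0.24 to 0.38) within cells with none of these 3 transcripts and 0.20 (-0.24 to 0.63) with Cr2 alone. It was 0.43 (0.25 to 0.60) with Fcer2a alone and 0.31 (0.10 to 0.52) with both Cr2 and Fcer2a.

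The invariant chain, whose gene lies on chromosome 18, was the most abundant member and differed less than the classical chains. Cd74 was at 10410 CPM (10360 to 10460) in neonatal and 13620 CPM (13580 to 13660) in adult cells, a log2 ratio of 0.39 (0.38 to 0.40). It accounted for 1.04% and 1.36% of all UMIs of the cells. Per classical UMI there were 1.58 Cd74 UMIs in neonatal and 1.30 in adult cells, a log2 difference of -0.28 (-0.29 to -0.27).

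The DM chains were higher in the adult library by less than the classical chains. H2-DMa was at 311 and 447 CPM, a log2 ratio of 0.52 (0.48 to 0.57). H2-DMb2 was at 352 and 527 CPM, a log2 ratio of 0.58 (0.54 to 0.62). Their ratio to each other was 0.88 and 0.85, a log2 difference of -0.06 (-0.12 to 0.003). For the DM sum per classical UMI the log2 difference was -0.12 (-0.15 to -0.08), and it was 0.02 (-0.05 to 0.10) within cells with both Cr2 and Fcer2a and -0.35 (-0.45 to -0.26) within cells holding Vpreb3 without either. It was 0.14 with a mitochondrial limit of 5%, which left 60 neonatal and 156 adult cells. H2-DMb1, the neighbouring DM beta gene, was at 59.5 and 97.5 CPM, a log2 ratio of 0.71 (0.61 to 0.82). The last 300 bases of the H2-DMb1 and H2-DMb2 transcripts were 66.6% identical with a longest identical run of 23 bases.

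The DO chains parted from each other. H2-Oa, the alpha chain, was at 139.5 CPM (133.9 to 145.4) in neonatal and 243 CPM (238 to 248) in adult cells, a log2 ratio of 0.80 (0.73 to 0.87). H2-Ob, the beta chain, was at 346 CPM (337 to 355.5) and 362 CPM (356 to 368.5), a log2 ratio of 0.06 (0.02 to 0.11), the smallest of the 10. The H2-Oa to H2-Ob ratio was accordingly 0.40 in neonatal and 0.67 in adult cells, a log2 difference of 0.73 (0.65 to 0.81). Within the 5 cell groups described below this difference ranged from 0.48 to 0.93. For the DO sum per classical UMI the log2 difference was -0.35 (-0.39 to -0.31), and it was 0.0884 with a mitochondrial limit of 5%, which left 60 neonatal and 156 adult cells. The direction of H2-Ob itself was not stable: its log2 ratio was -0.04 (-0.14 to 0.06) within cells with both Cr2 and Fcer2a, -0.27 (-0.46 to -0.07) within cells with Cr2 alone and 0.30 (0.16 to 0.44) within cells with Vpreb3 alone.

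In the neonatal library the order of levels ran from Cd74 through H2-Aa, H2-Ab1, H2-Eb1, H2-DMb2, H2-Ob, H2-DMa, H2-Oa and Ciita to H2-Eb2. The intervals of the neighbours H2-DMb2 (343 to 361) and H2-Ob (337 to 355.5) overlapped. In the adult library H2-Ob ranked below H2-DMa (440 to 454), and no neighbours in the order had overlapping intervals.

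Past 1.5-fold, 6 of the 10 members were higher in the adult library (H2-Aa, H2-Ab1, H2-Eb1, H2-Eb2, H2-Oa and Ciita) and 0 were lower, where 7.82% of 10703 genes with at least 50 UMIs over both libraries were past 1.5-fold higher and 12.2% were lower. With 1 library per age these are counts of size and not tests. H2-DMb2 lay just inside the limit at 1.496-fold, and H2-Ab1, at 1.573-fold, was the nearest beyond it. The median log2 ratio of the members was 0.66, and that of all counted genes was -0.13. Scaling by the median of ratios in place of total UMIs raised each log2 ratio by 0.15. Under that scaling 8 of 10 members were past 1.5-fold higher, H2-DMa and H2-DMb2 being added, and 0 lower, where 11.1% of all counted genes were higher and 7.55% lower.

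**Figure D2:**
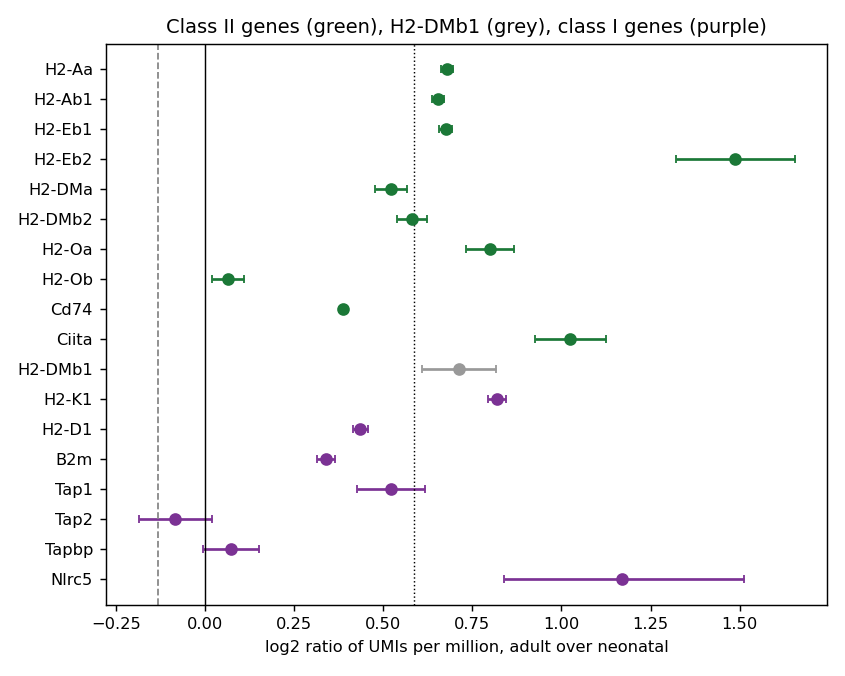
Log2 ratio of CPM, adult over neonatal, for the class II members (green), H2-DMb1 (grey) and the class I genes (purple), with exact 95% intervals for counting error. The dotted line marks 1.5-fold and the dashed line the median of all counted genes at -0.13; H2-Eb2 at 1.49 and Ciita at 1.03 are the members farthest to the right and H2-Ob at 0.06 the nearest to 0.

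Genes around the members moved less uniformly. Of 11 genes that act on class II transcription, 0 were past 1.5-fold in either direction with a median log2 ratio of -0.03. Under median-of-ratios scaling 2 of the 11 were past it higher and 0 lower, where 11.1% of all counted genes were higher. Rfx5, a subunit of the X box factor, stood at 14.9 and 20.2 CPM (log2 ratio 0.44, 0.23 to 0.66), whereas Rfxap, another subunit, stood at 27.7 and 20.7 CPM (-0.42, -0.59 to -0.25). Of 10 processing genes, Ifi30 was not analysed here, and Ctsl and Lgmn, both lysosomal proteases, were past 1.5-fold lower in the adult library among 9 counted. Over all counted genes 12.2% were past it lower. Under median-of-ratios scaling 0 of the 9 were, where 7.55% of all counted genes were. Ctss, the protease that trims the invariant chain in B cells, was at 339 and 448 CPM, a log2 ratio of 0.40 (0.36 to 0.45). Irf1, an interferon-induced factor on the list of inducing signals, was past 1.5-fold lower at 90.6 and 52.6 CPM. March1, a ubiquitin ligase that removes class II from the surface, was at 148 and 137 CPM, and Cd83, which opposes it, at 461 and 441 CPM, so neither of the 2 counted turnover genes was past 1.5-fold. March8 had 8 and 6 UMIs and was not counted.

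The class I genes, compared because both pathways present peptides, held 2 of 7 past 1.5-fold higher and a median log2 ratio of 0.44. H2-K1, a classical class I heavy chain, was at 953 and 1681 CPM (0.82, 0.79 to 0.84) and Nlrc5, the class I transactivator, at 5.55 and 12.5 CPM (1.17, 0.84 to 1.51). H2-D1 and B2m, the other heavy chain and the shared light chain, had log2 ratios of 0.44 and 0.34. Tap1, Tap2 and Tapbp, which load class I, had log2 ratios of 0.52, -0.08 (-0.19 to 0.02) and 0.07 (-0.01 to 0.15). The share past 1.5-fold higher over all counted genes was 7.82%. Under median-of-ratios scaling 4 of the 7 class I genes were past it higher, where 11.1% of all counted genes were.

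Cells were then grouped by 3 transcripts that the rule uses and that are not members. Vpreb3 is expressed in immature B cells, Cr2 encodes CD21 and Fcer2a encodes CD23, both acquired during peripheral maturation. Of the neonatal cells, 749 held Vpreb3 without Cr2 or Fcer2a (Vpreb3-only), 283 held none of the 3, 120 held Cr2 alone, 702 Fcer2a alone and 223 both (double-positive). The adult numbers were 267, 382, 330, 1260 and 1372. A transcript is detected more often in deeper cells: the median depths were 5275 and 7163 UMIs in neonatal Vpreb3-only and double-positive cells, and 4213 and 9083 UMIs in the adult ones. The other transitional B cell markers are given as CPM in Vpreb3-only and double-positive cells, neonatal and then adult. Ly6d was at 3625 and 2104, then 2584 and 2128. Spib was at 360 and 211, then 164.5 and 131.5. Sox4 was at 75.8 and 22.9, then 27.1 and 12.5. Cd93 was at 25.4 and 23.3, then 20.1 and 11.8. Cd24a was at 413 and 276 in neonatal cells but went the other way in adult cells, at 277.6 and 290.8.

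In the neonatal library the classical sum was higher in double-positive than in Vpreb3-only cells. In the adult library it was nearly level over all depths, but the change was larger within depth ranges, as given below. It was at 5386 CPM (5319 to 5453) in neonatal Vpreb3-only and 7420 CPM (7313 to 7527) in neonatal double-positive cells, a log2 change of 0.46 (0.43 to 0.49). In adult cells it was at 10320 CPM (10160 to 10490) and 10590 CPM (10540 to 10640), a log2 change of 0.04 (0.01 to 0.06). Over all depths the adult change was smaller by 0.43 (0.39 to 0.46) on the log2 scale. Age and cell group together thus left the neonatal Vpreb3-only cells lowest of the 10 groups, and neonatal double-positive cells still below every adult group. The adult to neonatal log2 ratio was 0.94 (0.91 to 0.97) in Vpreb3-only and 0.51 (0.49 to 0.535) in double-positive cells.

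The classical genes shared this pattern one by one. H2-Aa was at 1838 and 2658 CPM in the neonatal groups and at 3627 and 3797 CPM in the adult groups. H2-Ab1 was at 1863 and 2456 CPM, and at 3432 and 3457 CPM. H2-Eb1 was at 1685 and 2306 CPM, and at 3265 and 3336 CPM. Their neonatal log2 changes were 0.53, 0.40 and 0.45, and their adult changes 0.07, 0.01 and 0.03. H2-Eb2 was at 14.1 (65 UMIs) and 32.5 CPM (81 UMIs) in the neonatal groups, a log2 change of 1.20 (0.71 to 1.70), and at 48.6 and 62.9 CPM in the adult groups, 0.37.

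Cd74 differed little between these groups over all depths. It was at 10650 CPM (10560 to 10750) in neonatal Vpreb3-only and 10700 CPM (10570 to 10830) in neonatal double-positive cells, a log2 change of 0.01 (-0.02 to 0.03). In the adult groups it was at 14230 and 13950 CPM, a change of -0.03 (-0.05 to -0.007). In droplets of at least 8000 UMIs the Cd74 changes were 0.22 in neonatal and 0.29 in adult cells, beside 0.53 and 0.25 for the classical sum, so the adult Cd74 change turned and was close to the classical one there. Only 29 adult Vpreb3-only cells were this deep. Neonatal Vpreb3-only cells held 1.98 Cd74 UMIs per classical UMI, the highest of the 10 groups, and the other groups held 1.19 to 1.69.

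Ciita was higher in double-positive cells of both ages. It was at 58.4 and 78.2 CPM in the neonatal groups, a log2 change of 0.42 (269 and 195 UMIs), and at 94.4 and 138.7 CPM in the adult groups, 0.56 (0.31 to 0.81). In the adult library double-positive cells thus held 1.47-fold the Ciita CPM of Vpreb3-only cells and 1.03-fold the classical CPM. The DM sum changed by 0.18 and 0.13, H2-Oa by 0.34 and 0.20 on the log2 scale, and H2-Ob by 0.27 in neonatal and -0.07 in adult cells. Intervals of the difference between the libraries' changes included 0 for H2-DMa, H2-DMb2, H2-Oa and Ciita.

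**Figure D3:**
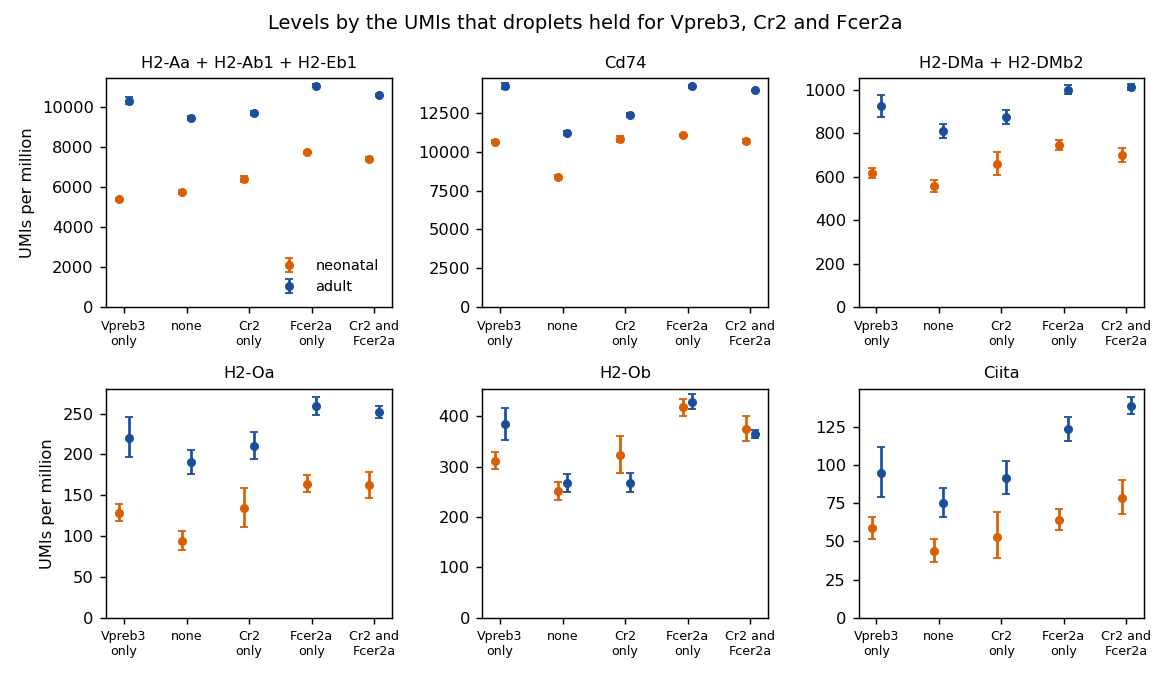
CPM of the classical sum, Cd74, the DM sum, H2-Oa, H2-Ob and Ciita in 5 cell groups of the neonatal (orange) and adult (blue) library, with exact 95% intervals for counting error and axes from 0. The neonatal classical sum goes from 5386 in Vpreb3-only to 7420 in double-positive cells while Cd74 stays at 10650 and 10700. The H2-Ob points of both libraries lie together in cells with Fcer2a and also in cells with none of the 3 transcripts (251 and 267).

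Past 1.5-fold, 1 of the 10 members (H2-Eb2) was higher in neonatal double-positive cells and 0 lower, where 3.89% of 7849 genes were higher and 5.36% lower. In the adult library 0 of 10 were past 1.5-fold, where 10.5% of 9453 genes were higher and 5.17% lower. The nearest below the limit was Ciita in the adult library at 1.47-fold. Median log2 changes of the members were 0.37 in neonatal and 0.09 in adult cells, beside -0.05 and 0.05 for all counted genes. The macrophage markers summed to 45.8 CPM in neonatal Vpreb3-only and 132 CPM in neonatal double-positive cells, with C1qa and C1qb at 0 in both groups. An alternative left out droplets with at least 2 UMIs of macrophage, dendritic, T cell or endothelial markers. The endothelial sum over all cells was nearly all Pecam1 (136.7 of 139.5 CPM neonatal, 116.3 of 117.3 CPM adult). This filter left 124 neonatal and 774 adult double-positive cells, so it cannot be read as removing other cell types alone. It gave a neonatal classical change of 0.64 and an adult one of 0.06. Within droplets of 4000 to 8000 UMIs the changes were 0.69 and 0.16, and in droplets of at least 8000 UMIs they were 0.53 and 0.25. The adult change was thus larger within each of these depth ranges than over all depths. The range from 8000 UMIs has no upper limit, so depth is not matched inside it. It held 29 adult Vpreb3-only and 782 adult double-positive cells.

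Of the surrounding genes, Rfxap was past 1.5-fold lower in neonatal double-positive cells (33.0 and 20.5 CPM). In adult double-positive cells Ctsl was past it lower (15 and 121 UMIs, an interval that includes no change) and Nlrc5 higher (12 and 257 UMIs, likewise). H2-K1 changed by 0.14 and 0.11 and H2-D1 by -0.04 and -0.06 on the log2 scale in the neonatal and adult library, so neither class I heavy chain shared the neonatal classical change of 0.46.

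Single cells showed where the neonatal classical sum was low. Each cell was thinned to 2000 UMIs, so that depth no longer set the counts. The median was 13 classical UMIs in neonatal cells (10th to 90th percentile 2 to 25) and 22 in adult cells (12 to 33). The variance was 5.33 times the mean in neonatal and 2.95 times in adult cells, where counting alone gives about 1. In the neonatal library the distribution had its highest counts near 12 UMIs per cell and a separate high count at 0: 106 cells had 0 classical UMIs, 55 had 1 and 107 had 12. In neonatal Vpreb3-only cells the 10th, 50th and 90th percentiles were 1, 10 and 22, and in double-positive cells 7, 17 and 26. The neonatal groups lay closer together at the 90th percentile than at the 10th and the 50th.

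**Figure D4:**
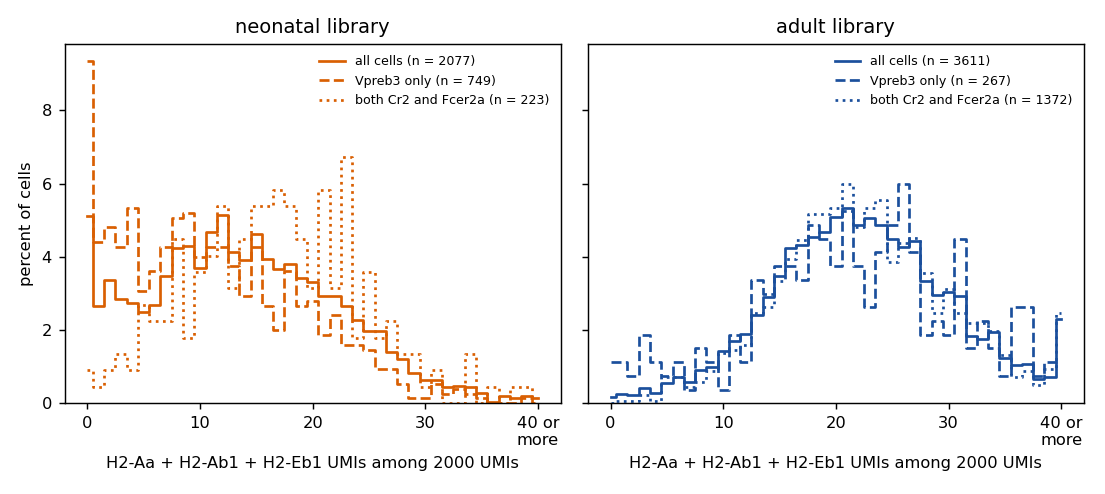
Percent of cells by the number of H2-Aa, H2-Ab1 and H2-Eb1 UMIs among 2000 UMIs, for all cells (solid), Vpreb3-only cells (dashed) and double-positive cells (dotted) of each library; the last step holds 40 or more. The neonatal library has a step at 0 UMIs, highest in its Vpreb3-only cells, and the adult library is centred on 22.

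At most 2 classical UMIs were found in 231 of 2077 neonatal cells (11.1%, 9.80 to 12.6%) and in 23 of 3611 adult cells (0.637%, 0.404 to 0.954%). This limit was set after the distribution had been seen. In the neonatal library the share was 18.6% of Vpreb3-only cells (139 cells), 15.6% of cells with none of the 3, 9.17% with Cr2 alone, 4.56% with Fcer2a alone and 2.24% of double-positive cells (5 cells). Adult Vpreb3-only cells held 2.996% (8 of 267) and adult double-positive cells 0.146% (2 of 1372). The neonatal share lay between 10.4% and 11.3% when only male cells were used, when droplets with markers of other cell types, with neutrophil or macrophage transcripts, with shared barcodes or with a cycling signature were left out, or when no Cd79a UMI was asked for.

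Of the 231 neonatal cells, 147 held at least 10 Cd74 UMIs per 2000, and adult cells of this kind numbered 10. The neonatal ones had a median of 5079 UMIs. As they were chosen by the classical chains and Cd74, those values only describe the choice: H2-Aa was at 350 CPM against 2448 CPM in the other neonatal cells, and Cd74 at 7326 against 10590 CPM. The members that were not used lay below the other neonatal cells to unequal degrees, with Ciita farthest below. Ciita was at 8.79 CPM (8 UMIs, 8 cells) against 63.4 CPM, a log2 difference of -2.85 (-4.07 to -1.87). H2-DMa was at 121 against 323 CPM (-1.42, -1.70 to -1.14), H2-DMb2 at 169 against 363 CPM (-1.10, -1.34 to -0.87) and H2-Oa at 76.9 against 143 CPM (-0.90, -1.26 to -0.55). H2-Eb2 was at 5.49 (5 UMIs) against 22.1 CPM (-2.01, -3.64 to -0.77). H2-Ob was nearest to the other cells at 255 against 352 CPM (-0.46, -0.66 to -0.27).

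These cells held the B cell gene Ms4a1, which encodes CD20, at 2208 against 1297 CPM (146 of 147 cells). Class I genes differed less than the members and in both directions. H2-K1 was lower at 822 against 961 CPM (-0.23, -0.33 to -0.12), H2-D1 higher at 1738 against 1537 CPM (0.18, 0.10 to 0.25) and B2m at 947 against 990 CPM (-0.06, -0.17 to 0.03). Of the 6 transitional B cell markers, Vpreb3 was at 856 against 353.5 CPM, Ly6d at 4304 against 2366, Spib at 380 against 226, Cd24a at 458 against 292 and Sox4 at 62.6 against 38.0 CPM, while Cd93 was at 18.7 against 23.1 CPM (-0.31, -1.10 to 0.39). The later markers Ighd, which encodes the IgD constant region, and Fcer2a were at 275 against 484 and 72.5 against 177 CPM. Rag1 and Vpreb1 had 1 UMI each and Igll1 and Dntt had 0, so transcripts of earlier bone marrow stages were near or at 0. The macrophage gene Lyz2 had 1 UMI in these cells, and all S100a8 and S100a9 UMIs, which mark neutrophils, came from 1 cell.

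**Figure D5:**
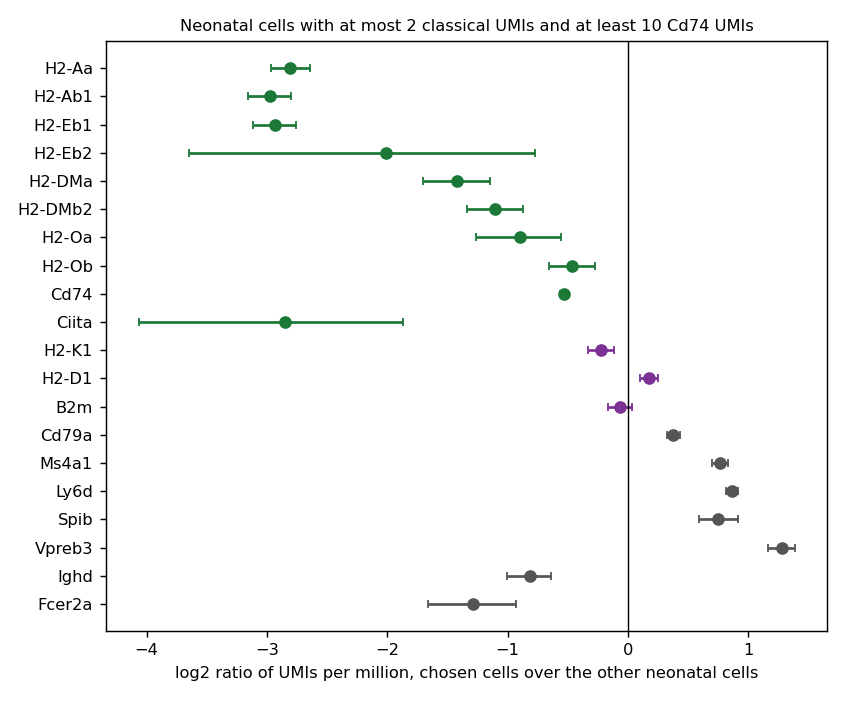
Log2 ratio of CPM in the 147 neonatal cells with at most 2 classical and at least 10 Cd74 UMIs among 2000, over the other neonatal cells, for members (green), class I genes (purple) and B cell genes (grey), with exact 95% intervals for counting error. The classical genes and Cd74 were used to choose the cells; of the others Ciita is lowest at -2.85, H2-Ob lies at -0.46 and B2m near 0 at -0.06.

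Detection in cells was set beside a share computed from near-empty droplets, with mean totals of 55.9 (neonatal) and 92.0 UMIs (adult). This share assumes that a near-empty droplet stands for the free RNA of a cell. That assumption, and so the part of free RNA in the cells, was not tested. The classical sum was at 7968 (neonatal) and 11640 CPM (adult) in near-empty droplets, against 6603 and 10500 CPM in the cells. It was thus higher in the adult library in near-empty droplets too. Near-empty droplets of the neonatal library would give H2-Aa to 4.75% of cells at 2000 UMIs and Cd74 to 15.8%, and those of the adult library to 11.45% and 29.4%. H2-Aa was present in 88.2% of neonatal and 99.1% of adult thinned cells, and Cd74 in 99.4% and all but 1 of 3611. Only 3 neonatal and 4 adult droplets were T cells without Cd79a, too few for a background share in a cell type lacking class II. The rarer members were above the near-empty share too: Ciita was detected in 11.3% of neonatal and 20.9% of adult cells against 0.0887% and 0.303%, and H2-Eb2 in 4.28% and 11.9% against 0.0490% and 0.189%.

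The classical chains and Cd74 varied together more between neonatal cells than between adult cells. Over 2077 thinned neonatal cells Pearson's r was 0.57 between H2-Aa and H2-Ab1, 0.56 between H2-Aa and H2-Eb1 and 0.42 between H2-Aa and Cd74. Over 3611 adult cells these were 0.38, 0.36 and 0.36. Cells of a library share its preparation, and the low counts of the other members keep their correlations weak (0.03 between H2-Oa and H2-Ob in adult cells), so nothing is read from those.

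Across the 10 pools of 5 cell groups and both libraries, the genes most like the classical sum among 1388 genes of at least 100 CPM included Hs3st1 (Pearson's r of log2 CPM 0.99), Fau (0.97), Aes (0.96) and Rps24 (0.96). Among the members H2-DMa had r of 0.97, H2-DMb2 0.95, H2-Oa 0.95, Ciita 0.89, Cd74 0.86 and H2-Ob 0.38. The pools of a library share all that sets the libraries apart, so r mostly describes the difference between them.

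Other cell groups were set by gene lists and were mostly below the remaining cells of their library. In cycling cells the classical sum was at 3634 CPM in 21 neonatal and 7263 CPM in 54 adult cells, log2 differences of -0.89 (-0.95 to -0.83) and -0.55 (-0.58 to -0.53). H2-Ob was the member farthest below in both (-1.32 and -1.15), but its partner H2-Oa was close to it in the neonatal cells (-1.29, and -0.70 in the adult ones). Cells with B1 cell genes (577 neonatal, 992 adult) stood at -0.28 in both libraries, and cells with plasma cell genes (10 and 38) at -0.55 and -0.36. Cells with an interferon signature differed by 0.08 in 28 neonatal and -0.13 in 309 adult cells. These groups were deep, with medians of 7857 to 43433 UMIs, and the part of depth or doublets in their levels was not tested.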

How the data were processed

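Single cells of 1 neonatal and 1 adult library were sequenced with 10x 3′ chemistry from sorted heart B cells, 6 mice pooled per library. The authors used Cell Ranger and mm10, and the deposited values are raw counts of UMIs by gene for every droplet barcode, with totals of 26866958 (neonatal) and 49500780 (adult). Rows of antibody tags, with 3 and 2 UMIs, were left out. From the deposited counts, cells were taken as droplets with at least 2000 UMIs, at most 10% mitochondrial UMIs and at least 1 Cd79a UMI. No doublet caller was run. UMIs were summed per library and cell group and divided by the total. Intervals are exact Poisson for levels, exact conditional binomial for ratios, normal for ratios of ratios and Clopper-Pearson for shares, all at 95%. They cover counting error only, and with 1 library per age no test between ages was made. For thinning, 2000 UMIs were drawn per cell. A gene was counted in a comparison with at least 50 UMIs over both pools. The genes named are the 10 members, H2-DMb1, the listed pathway and class I genes past 1.5-fold, and, of the 5 other genes most like the classical sum, those reported here. Some items are not reported here. Rfx5, Rfxap, Ctss, March1, Cd83, H2-D1 and B2m, and the genes shown for classical-low cells, were named after their values were seen. Members and lists were chosen with earlier results of these data known. On simulated data, 197 of 200 genes changed 2-fold were recovered among 10730 genes of the adult to neonatal comparison, and 157 unchanged genes passed 1.5-fold. The simulated counts had Poisson counting error only, without variation between cells, mice or libraries. They thus say nothing about how well a true age difference is found with 1 library per age. Python 3.11.15, numpy 2.4.6 and scipy 1.17.1 were used.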

Additional observations from a re-analysis of the deposited data

How the results depend on the processing

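Each age had 1 library, so no value here has replicate error and none could be left out. No paired analysis was possible because each age has 1 library and no comparison comes from a test. Values are log2. The adult to neonatal classical ratio (0.67) was above 0 under all 21 alternatives. It was 0.63 with the minimum set by the top 3000 droplets and 0.41 with a mitochondrial limit of 5% (60 and 156 cells). It was 0.70 without droplets holding markers of other cell types, 0.70 with male neonatal cells and 0.82 with median-of-ratios scaling. It was 0.71 as a mean over cells, 0.71 after thinning and 0.66 without shared barcodes. The following were chosen after seeing the data: it was 1.004, 0.70 and 0.75 in droplets of 2000 to 4000, 4000 to 8000 and at least 8000 UMIs, and 0.94, 0.72, 0.60, 0.51 and 0.51 in cells with Vpreb3 only, none of the 3, Cr2 only, Fcer2a only and both. DM relative to classical chains (-0.12) changed sign to 0.14 with the 5% limit. In cells with both it was 0.0226, with an interval (-0.05 to 0.10) that includes no difference. It was -0.17 without markers of other cell types, -0.15 as a mean over cells, -0.18 after thinning, -0.29 at 2000 to 4000 UMIs, -0.35 with Vpreb3 only, -0.17 with none and -0.19 with Cr2 only. DO relative to classical chains (-0.35) reversed to 0.0884 with the 5% limit, and was -0.40 with the top 3000 droplets, -0.29 after thinning, -0.25 at 4000 to 8000 UMIs, -0.42 from 8000 UMIs, -0.48 with Vpreb3 only, -0.31 with none, -0.53 with Cr2 only and -0.27 with Fcer2a only. The neonatal double-positive to Vpreb3-only classical change (0.46) was 0.64 without markers of other cell types, 0.50 with male cells, 0.49 with median-of-ratios scaling, 0.63 as a mean over cells, 0.65 after thinning, 0.58 without shared barcodes, 0.41 with 2 UMIs of each late marker, 0.69 at 4000 to 8000 UMIs and 0.53 from 8000 UMIs. The 5% limit and the 2000 to 4000 UMI bin left 5 and 6 neonatal double-positive cells and gave no value. For the changes after thinning, the cell groups were set again from the thinned counts. These groups held 720 Vpreb3-only and 44 double-positive neonatal cells, and 451 and 341 adult cells. The adult change (0.04) reversed to -0.0737 with the 5% limit (12 Vpreb3-only cells), and was 0.11 with the top 3000 droplets, 0.0874 as a mean over cells, 0.12 after thinning, 0.0634 without shared barcodes, and 0.15, 0.16 and 0.25 in the 3 depth bins in order. H2-Ob, adult to neonatal (0.06), was -0.0559 with the top 3000 droplets, -0.27 with Cr2 only and -0.0409 with both, but 0.46, 0.19 and 0.0640 in the 3 depth bins in order. The neonatal Cd74 change (0.006) ranged from -0.0218 to 0.22 over 16 alternatives. The adult Cd74 change (-0.03) was 0.16 with the top 3000 droplets, 0.0625 after thinning and 0.0162, 0.0340 and 0.29 in the depth bins in order. Values with the 5% limit rest on 60 neonatal and 156 adult cells. The cause of these changes of sign was not tested.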
